A study of Mus musculus with 3 samples.

Results

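Tbx21, Eomes, Zbtb16 and Hopx encode transcriptional regulators of innate-like lymphocytes, and their transcripts were followed through 3 single-cell RNA-seq runs of mouse DN and γδ thymocytes. The 4 genes were found by symbol, as 4 of the 28692 genes listed in each of the first and second runs and 4 of the 32285 genes listed in the third. All 4 had UMIs in every run. Thymocytes came from C57BL/6 mice at week 6, with 4 thymi pooled before sorting, and carried no engineered allele or treatment. CD4+ and CD8+ cells were depleted, and cells with surface B220, CD11b, CD11c, NK1.1 or TCRβ were gated out in each sort. The first run held total DN and TCRγδ+ thymocytes, the second held the CD44+ stages DN1 and DN2 with TCRγδ+ cells gated out, and for the third DN1 plus DN2, DN3 and TCRγδ+ thymocytes were sorted apart and then mixed. Each sort was made once, so that kit, sort and run cannot be told apart.

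T-bet, the product of Tbx21, is the T-box factor that drives interferon-γ production in type 1 lymphocytes. EOMES, the second T-box factor of lymphocytes, is needed for the maturation of NK cells and for memory of CD8 T cells. Zbtb16 encodes PLZF, a zinc finger factor with a BTB domain that gives NKT cells, MAIT cells and some γδ T cells their rapid, innate-like responses. HOPX is a small homeodomain protein that does not bind DNA by itself and is found in effector and memory lymphocytes.

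Limits of 500 to 5000 genes per cell and of 7% for mitochondrial counts left 5516 of 5527 cells in the first run, 8852 of 8887 in the second and 7511 of 8869 in the third. The median cell had 5989.5, 4844 and 8507 UMIs, respectively. The first run shared 72 cell barcodes with the second and 3 with the third, and the others shared 0. Cells were placed in 4 gates by their own transcripts. The Trac gate (constant region of the TCRα chain) took at least 3 Trac UMIs and more Trac than Trdc, and the Trdc gate (TCRδ chain) at least 3 Trdc UMIs and no fewer Trdc than Trac. The Klrk1 gate (NKG2D, an activating receptor of NK cells and effector T cells) and the Il17re gate (a subunit of the IL-17C receptor, found on type 17 lymphocytes) each took cells with at least 1 UMI. The Trac, Trdc, Klrk1 and Il17re gates held 27, 2381, 20 and 78 cells in the first run, 1926, 3597, 1526 and 638 in the second, and 994, 3153, 936 and 574 in the third. Although TCRβ+ and TCRγδ+ cells had been gated out of the second run, 1926 of its cells lay in the Trac gate and 3597 in the Trdc gate. The receptor gates therefore mark transcripts and not a receptor on the surface. Cells of the Trdc gate are not read here as γδ T cells, nor those of the Trac gate as αβ T cells.

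The Tbx21 gene lies on chromosome 11 from 97098071 to 97115331 on the minus strand of GRCm38 (ENSMUSG00000001444), and Zbtb16 on chromosome 9 from 48654297 to 48836222 on the minus strand (ENSMUSG00000066687). Neither overlaps another annotated gene. Eomes lies on chromosome 9 from 118478212 to 118486132 on the plus strand (ENSMUSG00000032446) and overlaps the antisense gene Gm33460. Hopx lies on chromosome 5 from 77086988 to 77115121 on the minus strand (ENSMUSG00000059325) and overlaps the antisense gene Hopxos. The 250 bases before the RefSeq start (GRCm38.p6) are shown for the T-box genes, as the related pair among the 4. RefSeq promoters were available for 3 of the 4 genes. Capitals mark GC boxes (GGGCGG) and TATA boxes (TATATAA), searched on both strands.
Tbx21, chr11:97115332-97115581, minus strand: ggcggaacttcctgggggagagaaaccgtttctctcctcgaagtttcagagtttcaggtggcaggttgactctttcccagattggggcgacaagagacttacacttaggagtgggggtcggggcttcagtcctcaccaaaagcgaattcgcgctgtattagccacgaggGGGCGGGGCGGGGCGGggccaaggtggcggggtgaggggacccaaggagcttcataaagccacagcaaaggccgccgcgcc
Eomes, chr9:118477939-118478188, plus strand: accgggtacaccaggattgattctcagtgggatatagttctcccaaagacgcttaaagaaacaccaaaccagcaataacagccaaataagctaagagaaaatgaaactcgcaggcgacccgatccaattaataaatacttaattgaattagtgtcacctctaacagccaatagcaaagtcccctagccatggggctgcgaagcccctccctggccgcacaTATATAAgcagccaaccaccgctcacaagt
The Tbx21 window held 3 GC boxes, each sharing its last base with the next, and no TATA box, while the Eomes window held 1 TATA box and no GC box. GC boxes were present in 32.7% and TATA boxes in 3.04% of the 32851 promoters of that length. No T-box motif (GTGTGA, in 12.3% of promoters) and no Runx motif (TGTGGT, in 14.0%) was present in either window, or in the windows of the 2 Hopx starts. The Tbx21 window was 60.8% G and C and the Eomes window 46.4%.

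The first run held almost no transcripts of the 4 genes. Over its 5516 cells there were 21 Tbx21, 5 Eomes, 21 Zbtb16 and 3 Hopx UMIs. The second run held 505, 43, 405 and 134 UMIs in 439, 27, 345 and 132 cells, and the third 487, 223, 2014 and 784 UMIs in 395, 96, 855 and 556 cells, in the same order. Between 11.4% of cells for Zbtb16 and 1.28% for Eomes had a UMI in the third run. Levels are therefore described for the second and the third runs, as CPM, the UMIs of a gene scaled to the total UMIs of its cells, with exact Poisson 95% intervals that cover counting error only.

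Tbx21 was found in the Klrk1 and Trac gates. In the Klrk1 gate it was at 47.4 CPM (42.1 to 53.2) in the second run and 43.4 CPM (38.6 to 48.6) in the third, and in the Trac gate at 51.2 CPM (46.1 to 56.8) and 36.3 CPM (32.3 to 40.7). In the Trdc gate it was at 1.72 and 0.702 CPM and in the Il17re gate at 1.45 and 1.07 CPM. The intervals of the Klrk1 and Trac gates overlapped in both runs, as did those of the Trdc and Il17re gates. Gates share cells, so these intervals are not independent, and no order within each pair is read from them. Cells with at least 3 UMIs of Ptcra, the gene of the pre-TCR α chain, were taken as background cells and called Ptcra cells. The rule marks this transcript and not a pre-TCR on the surface. Ptcra cells also had no Klrk1 or Il17re UMI and fewer than 3 Trdc UMIs, so by rule they lay outside the Klrk1, Il17re and Trdc gates. Their Tbx21 level was 1.51 and 1.17 CPM. A Tbx21 UMI was present in 16.3% and 26.4% of the Klrk1 gate and in 0.660% and 1.05% of the Ptcra cells, with medians of 2857.5 and 5974 UMIs in the former and 5420 and 7549.5 UMIs in the latter. The shares of the Trdc gate, 1.17% and 0.793%, and of the Il17re gate, 0.784% and 1.05%, were close to those of the Ptcra cells. Each gate as a whole is read as background. Cells of the Trdc gate with a Klrk1 but no Il17re UMI had larger shares at full depth. Of these, 18 of 170 and 6 of 81 had a Tbx21 UMI, and 4 of 97 and 3 of 58 once doublets were removed.

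Zbtb16 was higher in the Klrk1 and Il17re gates than in the Ptcra cells of both runs. In the Il17re gate it was at 35.7 CPM (29.6 to 42.6) in the second run and 106 CPM (98.2 to 114) in the third, and in the Klrk1 gate at 13.9 CPM (11.1 to 17.2) and 54.8 CPM (49.5 to 60.6). The Trac gate was highest or level with the Il17re gate, with 37.6 CPM (33.2 to 42.5) and 139 CPM (131 to 147). In the Trdc gate it was at 2.29 CPM (1.75 to 2.95) and 9.03 CPM (8.10 to 10.0), against 1.01 and 1.85 CPM in the Ptcra cells. The level in the Trdc gate of the third run lay above these background cells, but its interval overlapped that of the B cells, at 5.03 CPM (2.75 to 8.43), and in the second run the Trdc gate was not separated from the Ptcra cells. A Zbtb16 UMI was present in 4.19% of the Trdc gate of the third run, with a median of 10586 UMIs, and in 1.20% of the Ptcra cells, and after thinning to 2000 UMIs in 1.59% and 0.151%.

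Hopx followed Tbx21 in its gates but not in its runs. It was at 13.9 CPM (11.1 to 17.2) in the Klrk1 gate of the second run and 72.8 CPM (66.6 to 79.4) in that of the third, and at 12.3 and 55.9 CPM in the Trac gate. In the Il17re gate it was at 1.45 and 4.72 CPM and in the Trdc gate at 0.306 and 1.56 CPM. B cells, taken as cells with at least 2 Cd79a UMIs, were at 12.6 CPM (8.75 to 17.5) in the third run, where 7.02% of the 413 B cells had a Hopx UMI. This share was above the 4.53% of the Il17re gate. In the third run the B cells lay below the Klrk1 gate, at 72.8 CPM, and above the Il17re gate, at 4.72 CPM. They therefore do not set a background for Hopx in the Il17re gate. Whether the Il17re gate lay above background is not read from them. Of the 144 Il17re cells of the third run that also met the Trac rule and had no Klrk1 UMI, 11 had a Hopx UMI.

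Eomes was the rarest of the 4 genes in the second and the third runs, and its level in the Klrk1 gate came mostly from the third. It was at 20.7 CPM (17.5 to 24.4) in the Klrk1 gate of the third run and at 1.48 CPM (0.675 to 2.80) in that of the second. In the other gates it was between 0.152 and 1.93 CPM over both runs. No Eomes UMI was found among 664 Ptcra cells of the third run, which allows a share of up to 0.452%, whereas 1.17% of the Trdc gate had one, as did 0.484% of the B cells.

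**Figure D1:**
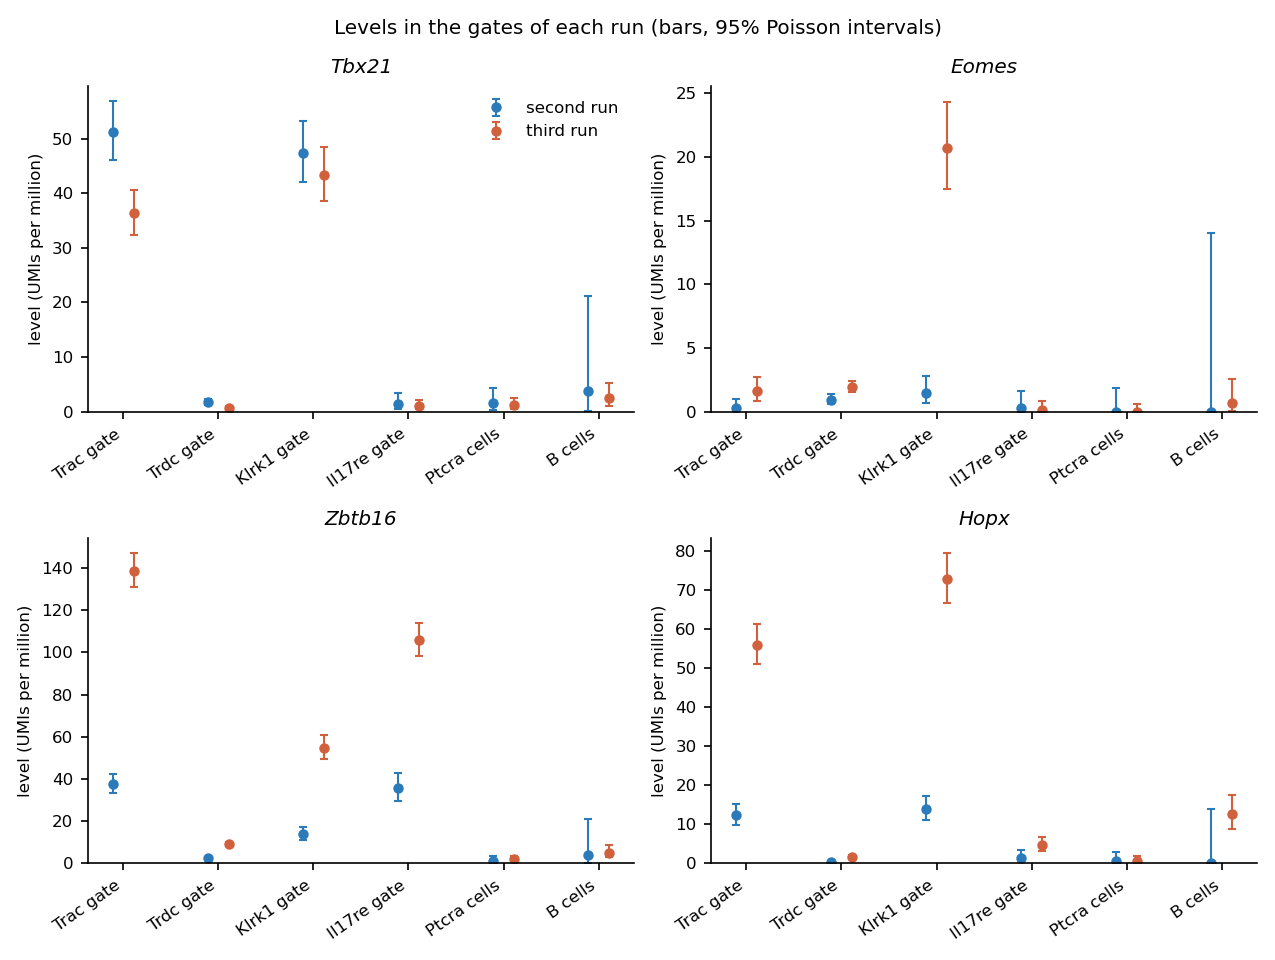
Levels of the 4 genes (y axis, CPM) in the 4 gates and in Ptcra cells and B cells (x axis) of the second and the third runs, with exact Poisson 95% intervals. Tbx21 is at 36.3 to 51.2 CPM in the Trac and Klrk1 gates and below 2 CPM in the Trdc and Il17re gates. Zbtb16 is higher in the Trac, Il17re and Klrk1 gates than in the Trdc gate, and Eomes is high in the Klrk1 gate of the third run only.

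Gates overlap, so exclusive classes were formed for the comparisons. The Klrk1 class had a Klrk1 but no Il17re UMI, the Il17re class the reverse, the Trac and Trdc classes were the receptor gates without either, and the class called none held all other cells. Cells with both Klrk1 and Il17re UMIs were left out (0, 56 and 58 cells in the 3 runs). UMIs were summed for each class and run, and edgeR's quasi-likelihood test was run on the 15 sums with the run as a block and Benjamini-Hochberg adjustment over 11338 genes. The replicates were the 3 runs, whose sorts differed. A call does not by itself say that a difference recurred in each run, so values are given by run. Eomes fell to the filter on low counts and was tested in the same fit with the 4 genes kept, an alternative chosen after seeing the data.

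Against the class none, 3 of the 3 genes that passed the filter were higher in the Klrk1 class, where 23.2% of all genes were called higher and 22.4% lower. Tbx21 was at 15.6, 49.9 and 46.9 CPM in the Klrk1 class of the 3 runs and at 0.671, 2.44 and 1.95 CPM in the class none. Every run showed the same direction, and the log2 fold change was 4.64 ± 0.20 (SE, n = 3 runs, edgeR adjusted p = 4.4e-10). Hopx was at 15.6, 14.5 and 78.8 CPM in the Klrk1 class and at 0.0516, 0.774 and 3.14 CPM in the class none, a log2 fold change of 4.77 ± 0.21 (edgeR adjusted p = 5.1e-10). Zbtb16 rose less, by 3.01 ± 0.21 (edgeR adjusted p = 3.5e-08), from 0.103, 1.91 and 7.78 CPM to 15.6, 13.3 and 52.4 CPM. The first run contributed only 20 Klrk1 cells with 2 UMIs each of these 3 genes. With the 4 genes kept, Eomes was also higher (log2 fold change 4.28 ± 0.58, edgeR adjusted p = 3.4e-05), at 7.79, 1.56 and 22.6 CPM against 0.103, 0.536 and 0.711 CPM. Without the third run this call was lost (1.83, adjusted p = 0.14).

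Of the 4 genes, 1 was called higher in the Il17re class. Zbtb16 was at 3.84, 36.8 and 109 CPM there and was higher than in the class none in each run, with a log2 fold change of 4.05 ± 0.20 (edgeR adjusted p = 6.2e-09). In this comparison 13.5% of genes were called higher and 9.61% lower. Tbx21 was at 0, 1.28 and 0.337 CPM and did not pass the test (log2 fold change -1.64 ± 0.59, edgeR adjusted p = 0.058). It passed, as lower in the Il17re class, when B and myeloid cells were removed (adjusted p = 0.046), with a receptor minimum of 5 UMIs (0.0060) and without the first run (0.032). Hopx (0.43 ± 0.37, edgeR adjusted p = 0.43) and Eomes (-2.54 ± 1.77, edgeR adjusted p = 0.33) did not pass either, with 27 and 1 UMIs in the Il17re class over all runs.

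Set against each other, the Klrk1 and Il17re classes separated Tbx21 and Hopx from Zbtb16. Tbx21 was higher in the Klrk1 class by 6.28 ± 0.36 on the log2 scale (edgeR adjusted p = 1.8e-08). Within the third run the ratio was 139, with an interval of 38.2 to 1155 since only 2 UMIs lay in the Il17re class, and within the second it was 39.0 (15.1 to 144). Hopx was higher by 4.34 ± 0.27 (edgeR adjusted p = 4.8e-08), with ratios of 11.4 (4.28 to 42.7) and 20.3 (13.4 to 32.4). Zbtb16 was lower in the Klrk1 class by -1.04 ± 0.18 on the log2 scale (edgeR adjusted p = 0.00096), with ratios of 0.363 (0.268 to 0.488) in the second run and 0.482 (0.421 to 0.550) in the third. In the first run, both classes had 2 Zbtb16 UMIs, at 15.6 and 3.84 CPM, which is the opposite order. The call on Zbtb16 was lost without the second run (-0.84, adjusted p = 0.27) and without the third (-1.26, adjusted p = 0.080), and with DESeq2 (-0.88, adjusted p = 0.34), while Tbx21 and Hopx passed in each of these fits. Over all genes, 7.83% were called higher and 6.07% lower. Eomes was higher in the Klrk1 class with the 4 genes kept (log2 fold change 6.82 ± 1.10, edgeR adjusted p = 0.00047), though not without the third run (2.57, adjusted p = 0.53). In the third run 144 Eomes UMIs stood against 0, so the level was at least 44.7-fold higher when the Il17re class is set at 3 counts.

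**Figure D2:**
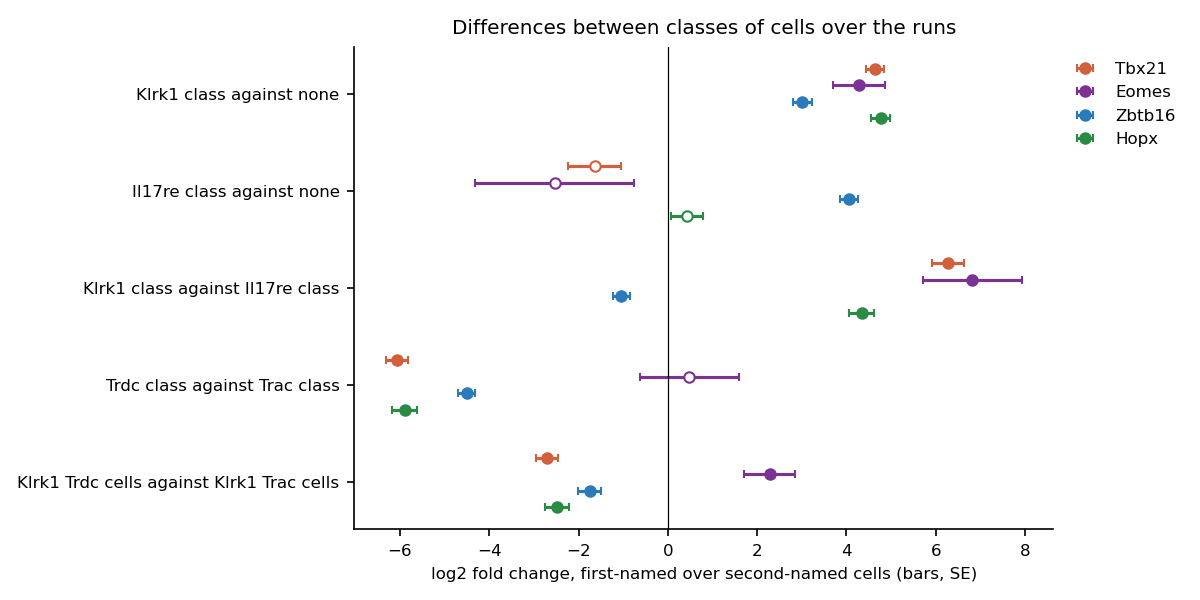
Log2 fold changes of the 4 genes (x axis, first-named over second-named cells) in the 5 comparisons (y axis), with bars for the SE and open symbols where the adjusted p was above 0.05; Eomes is from the fit with the 4 genes kept. Tbx21 and Hopx lie at 4.34 or above for the Klrk1 class against either the Il17re class or the class none, whereas Zbtb16 is at -1.04 in the former and 3.01 in the latter.

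Other genes of these programmes were described from lists. Of 18 type 1 genes tested, 17 were higher and 0 lower in the Klrk1 than in the Il17re class, with a median log2 difference of 3.73 against -0.01 over all genes. Ccl5, a chemokine of cytotoxic lymphocytes, was higher by 7.36 ± 0.95, and Xcl1, which attracts cross-presenting dendritic cells, by 6.73 ± 0.82. Of 17 type 17 genes, 0 were higher and 15 lower, with a median of -2.42. Il23r, the receptor that maintains type 17 cells, was lower by -3.97 ± 0.42 and the cytokine gene Il17a by -4.28 ± 0.46. Among 13 effector and memory factors, 7 were higher and 1 lower, led by Zfp683 (6.60 ± 0.78), which encodes the residency factor HOBIT, and Irf8 (2.18 ± 0.48), while Tox was lower (-0.78 ± 0.14). Of 12 naive and progenitor factors, 1 was higher (Hhex, 1.09 ± 0.21) and 3 lower, among them Tcf7 (-0.78 ± 0.12) and Id3 (-0.82 ± 0.20). Of 12 NKT and innate-like genes, which belong to the programme PLZF is known for, 1 was higher (Izumo1r, 3.63 ± 0.42), 1 lower (Itgb3, -1.53 ± 0.42) and 10 not called. Markers of NK cells moved with the Klrk1 class. All 8 of 8 were higher there than in the Il17re class, and their summed level was 507, 1184 and 921 CPM in the Klrk1 class of the 3 runs and 0, 54.0 and 31.4 CPM in the Il17re class. Their part in the levels of the 4 genes was not tested.

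Receptor classes without Klrk1 or Il17re differed strongly. They were set by transcripts, so the comparison is not one of γδ with αβ T cells. Tbx21 was at 48.9 and 36.3 CPM in the Trac class of the second and the third runs and at 0.975 and 0.451 CPM in the Trdc class, a log2 fold change of -6.07 ± 0.25 for Trdc over Trac (edgeR adjusted p = 1.8e-10). Hopx was at 9.91 and 43.1 CPM against 0.0848 and 0.929 CPM (-5.89 ± 0.28, edgeR adjusted p = 7.0e-10). Zbtb16 was at 43.6 and 155 CPM against 1.74 and 8.28 CPM (-4.50 ± 0.19, edgeR adjusted p = 2.5e-10). In the first run, the 25 cells of the Trac class had 2 Zbtb16 UMIs and none of the others, where 3 counts would be 14.7 CPM. Eomes did not pass the test (0.48 ± 1.11, edgeR adjusted p = 0.75). It was at 1.02 and 1.52 CPM in the Trdc class (24 and 54 UMIs) and at 0 and 1.61 CPM in the Trac class (0 and 5 UMIs). Thus 3 of the 4 genes were lower in Trdc cells, in a comparison where 26% of genes were called lower and 22% higher. The summed level of the NK cell markers was 890 and 603 CPM in the Trac class and 18.1 and 8.95 CPM in the Trdc class, and their part was not tested.

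A similar order was seen within the Klrk1 class. Cells of the Klrk1 class that also met the rule of the Trac gate, called Klrk1 Trac cells, numbered 881 and 453 in the second and the third runs, and those that met the rule of the Trdc gate, called Klrk1 Trdc cells, 170 and 81, while the first run had 1 and 8 and was left out. Tbx21 was at 72.3 CPM (62.8 to 82.8) and 59.0 CPM (50.7 to 68.2) in the Klrk1 Trac cells and at 15.6 CPM (9.65 to 23.8) and 6.77 CPM (2.72 to 13.9) in the Klrk1 Trdc cells. The log2 fold change of Trdc over Trac cells was -2.71 ± 0.25 (edgeR adjusted p = 4.0e-15). Hopx (-2.49 ± 0.27, edgeR adjusted p = 2.6e-12) and Zbtb16 (-1.75 ± 0.26, edgeR adjusted p = 5.1e-08) were lower as well, among 18.5% of 9374 genes called lower and 19.8% higher. This fit had 4 sums and 1 residual degree of freedom, so that its p-values rest mostly on the spread shared over genes. The call on Zbtb16 was lost when cells were thinned to 2000 UMIs (-0.98, adjusted p = 0.13). Removal of doublets left 97 and 58 Klrk1 Trdc cells, in which Tbx21 was at 6.62 and 6.20 CPM and Hopx at 0 and 12.4 CPM, against 2.23 and 22.2 CPM with doublets kept, and the log2 differences became -3.67 for Tbx21, -3.54 for Hopx and -1.52 for Zbtb16. The median number of UMIs was 2750 and 5846 in the Klrk1 Trac cells and 7262.5 and 12499 in the Klrk1 Trdc cells. The NK cell markers summed to 277 and 307 CPM in the Klrk1 Trdc cells and to 1644 and 1020 CPM in the Klrk1 Trac cells.

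Eomes ran the other way in that comparison, but on few cells. With the 4 genes kept it was higher in the Klrk1 Trdc cells (2.28 ± 0.57, edgeR adjusted p = 0.00079), from 20 UMIs in 7 cells of the third run against 8 UMIs in 4 Klrk1 Trac cells, and 0 against 2 UMIs in the second run. Removal of as many doublets as were listed in the study left 4 of the 20 UMIs, and the difference became 0.47 (adjusted p = 0.73). The call was also lost with DESeq2 (1.43, adjusted p = 0.56), with a receptor minimum of 5 UMIs (1.72, adjusted p = 0.083) and after thinning (2.20, adjusted p = 0.072).

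**Figure D3:**
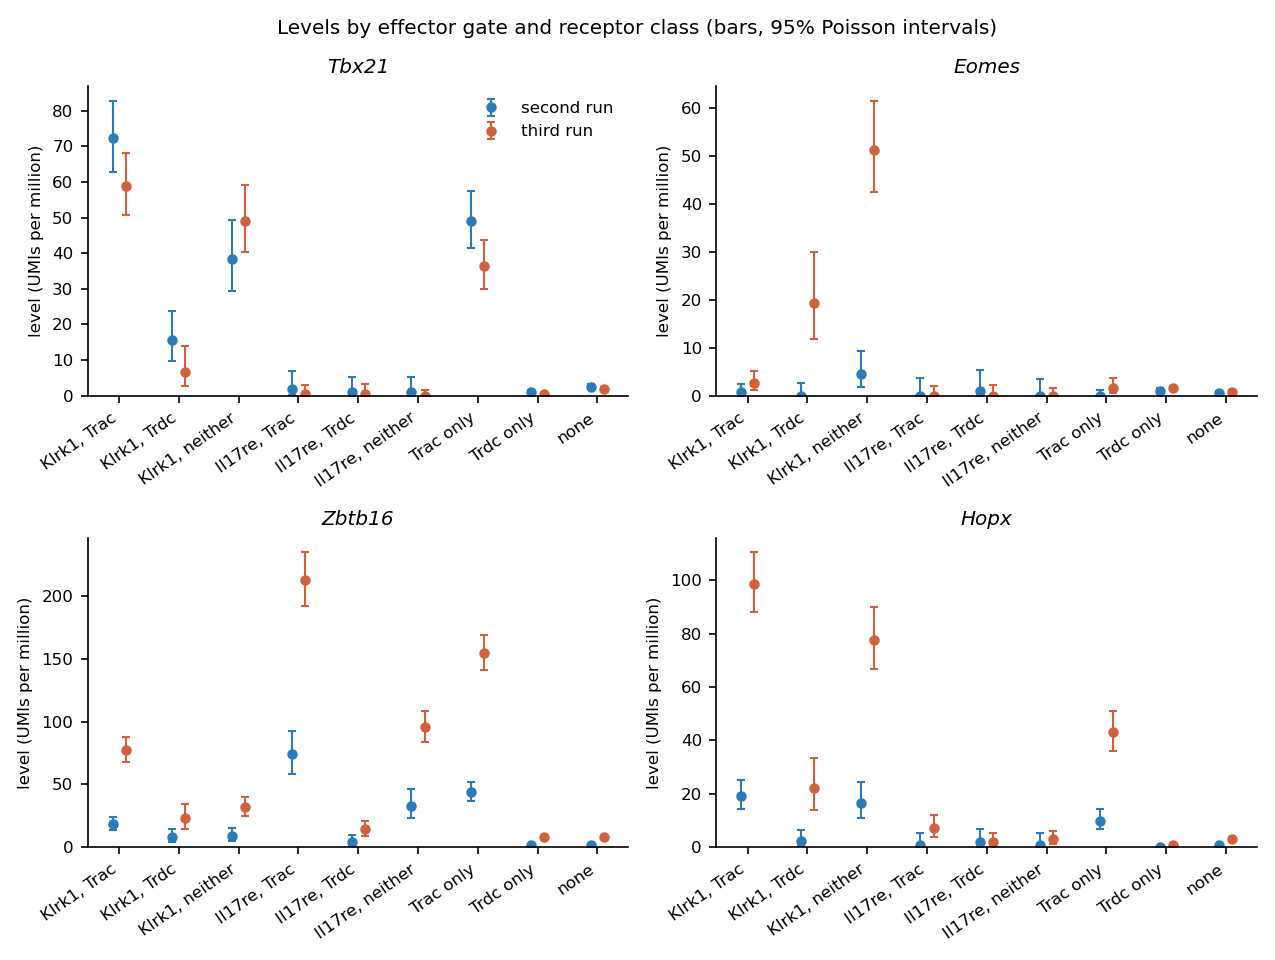
Levels of the 4 genes (y axis, CPM, with exact Poisson 95% intervals) in cells split by Klrk1 or Il17re class and by receptor gate (x axis) in the second and the third runs. Zbtb16 is highest in Il17re cells with Trac, at 74.3 and 213 CPM, and Eomes in Klrk1 cells of neither receptor gate, at 51.2 CPM in the third run.

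The receptor gates also divided the Il17re class. Its cells that met the rule of the Trac gate, called Il17re Trac cells, were at 74.3 CPM of Zbtb16 (58.5 to 93.0) in the second run and 213 CPM (193 to 235) in the third, the highest level of the gene in any class described here. Those that met the rule of the Trdc gate, called Il17re Trdc cells, were at 3.81 CPM (1.04 to 9.74) and 14.2 CPM (9.12 to 21.2), and Il17re cells of neither gate at 33.2 and 95.8 CPM. A Zbtb16 UMI was present in 29.7% and 86.8% of the Il17re Trac cells and in 1.79% and 6.75% of the Il17re Trdc cells. After thinning to 2000 UMIs, the shares were 16.0% and 27.8% against 1.79% and 1.84%. Removal of doublets left 1 of the 24 Zbtb16 UMIs of the Il17re Trdc cells in the third run, at 0.875 CPM over 129 cells, while the Il17re Trac cells were at 235 CPM. These differences between receptor gates within the Il17re class were described within each run and not tested over runs.

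Of the Eomes cells in the third run, 44 of 96 (45.8%) were Klrk1 cells of neither receptor gate and 30 (31.3%) were in the Trdc class. The former made up 4.58% of all cells of that run and the Trdc class 38.5%. The 344 Klrk1 cells of neither gate were at 51.2 CPM of Eomes (42.3 to 61.4), against 2.61 CPM (1.13 to 5.13) in the 453 Klrk1 Trac cells, and 12.8% and 0.883% of cells had a UMI. Markers of other cells moved with Eomes there. The summed level of the 8 NK cell markers was 2609 CPM in the 44 cells with an Eomes UMI and 857 CPM in the 300 without, with 1020 CPM in the Klrk1 Trac cells. The 7 myeloid or dendritic markers, which include the adaptor genes Fcer1g and Tyrobp that NK cells also express, summed to 3403 and 711 CPM, with 377 CPM in the Klrk1 Trac cells, and 2 of the 7 were at 0 in the cells with an Eomes UMI. Ncr1, which encodes the NK receptor NKp46, was at 294 CPM with and 30.6 CPM without an Eomes UMI, and Klra4, a Ly49 receptor gene, at 434 and 11.0 CPM. Cd3e, a subunit of the T cell receptor complex, was at 110 and 506 CPM, respectively. NK1.1+ cells had been gated out of the sort, and the part of NK or myeloid cells in the Eomes level was not tested. Ncr1, Klra4 and Cd3e were shown here after their values were seen.

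**Figure D4:**
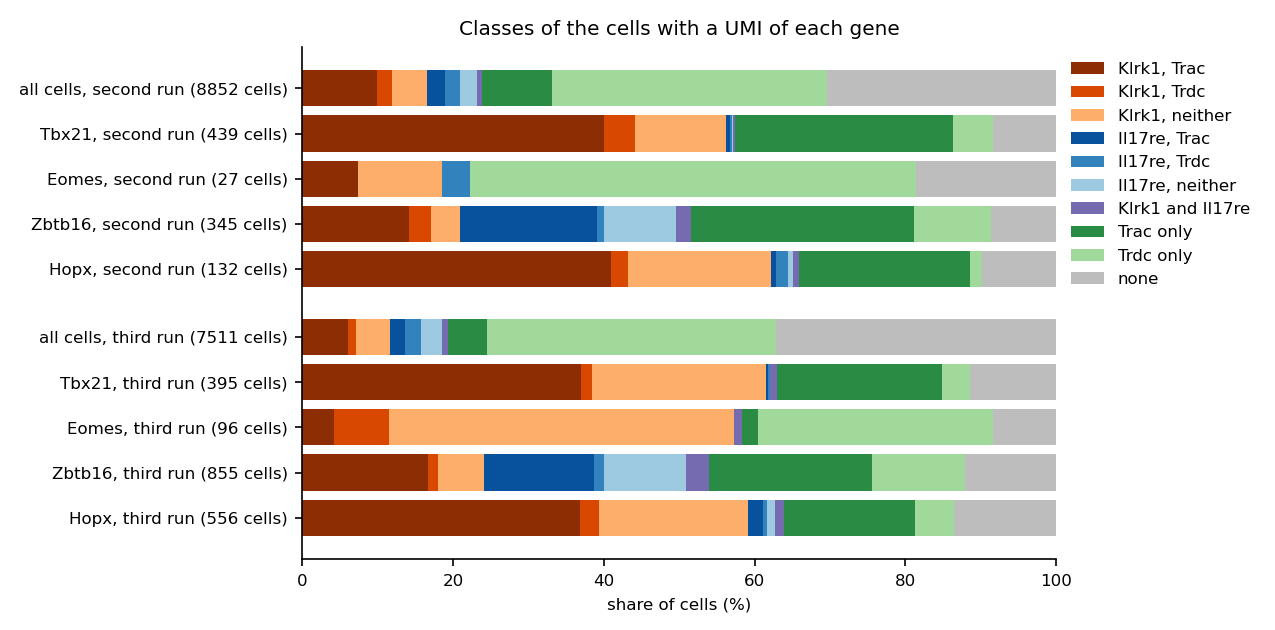
Share of cells (x axis, %) in each class, for all kept cells and for the cells with a UMI of each gene in the second and the third runs (y axis, with the number of cells). Tbx21 and Hopx cells fall mostly in the Klrk1 and Trac classes, and Zbtb16 cells are spread over the Klrk1, Il17re and Trac classes. Of the 96 Eomes cells of the third run, 44 (45.8%) are Klrk1 cells of neither receptor gate, which make up 4.58% of all cells. A further 30 (31.3%) are in the Trdc class, below its 38.5% of all cells. In the second run 16 of the 27 Eomes cells (59.3%) lie in the Trdc class, which makes up 36.5% of all cells.

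Most cells with Tbx21, Zbtb16 or Hopx thus carried a Klrk1 or Il17re UMI or met the rule of the Trac gate. Of the Tbx21 cells, 247 of 439 in the second run and 243 of 395 in the third were in the Klrk1 class, and a further 127 and 86 in the Trac class. Hopx cells were in the Klrk1 class in 82 of 132 and 329 of 556 cases. Zbtb16 cells were divided among the Klrk1 class (72 of 345 and 206 of 855), the Il17re class (99 and 229), the Trac class (102 and 185), the Trdc class (35 and 106) and the class none (30 and 103). Eomes cells of the second run were in the Trdc class in 16 of 27 cases, with 5 in the Klrk1 class and 5 in the class none. The Trdc class made up 36.5% of all cells in the second run and 38.5% in the third. For the other classes these shares were 16.6% and 11.7% (Klrk1), 6.57% and 6.87% (Il17re), 9.27% and 5.13% (Trac), and 30.4% and 37.1% (none).

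Exclusivity was read from cells with UMIs of both genes. In the Klrk1 gate of the third run, Hopx was detected more often in cells with Tbx21 than in cells without it. Of 247 Tbx21 cells, 116 had a Hopx UMI, which is 47.0% (exact 95% interval 40.6% to 53.4%), against 31.8% (28.3% to 35.4%) of the cells without Tbx21. The median cell had 5914 and 5993 UMIs, respectively. In the second run the shares were 8.87% (5.64% to 13.1%) and 4.77% (3.67% to 6.09%), in the same direction but with intervals that overlapped. After thinning, the shares of the third run were 18.5% (11.1% to 27.9%) and 15.2% (12.8% to 17.8%), a difference within counting error. Tbx21 and Zbtb16 were not exclusive either, with a Zbtb16 UMI in 31.6% (25.8% to 37.8%) of Tbx21 cells and 22.4% (19.3% to 25.6%) of the others in the third run, and in 6.45% and 4.93% in the second. Thinning turned this order, to 6.52% and 9.02% in the third run and 2.35% and 3.32% in the second, with overlapping intervals, so no order is read from it.

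In the Trac gate, Hopx was detected less often in cells with Zbtb16. Of 462 Zbtb16 cells in the third run, 22.5% (18.8% to 26.6%) had a Hopx UMI, against 40.2% (36.0% to 44.5%) of the cells without Zbtb16, although the Zbtb16 cells had more UMIs, with medians of 8699 and 5777. After thinning to 2000 UMIs these shares were 5.59% (2.71% to 10.0%) and 14.6% (12.2% to 17.2%). For Tbx21 they were 19.9% (16.4% to 23.9%) and 26.7% (23.0% to 30.7%), and 4.47% and 7.98% after thinning, with overlapping intervals. The second run showed no such difference for Hopx, with 4.15% (1.91% to 7.73%) and 4.45% (3.52% to 5.53%). For Tbx21 in the second run the shares were 12.9% (8.75% to 18.1%) and 16.3% (14.5% to 18.1%), and 4.51% (1.67% to 9.56%) and 11.3% (9.89% to 12.9%) after thinning. The Trac gate of the third run held 92 cells with both Tbx21 and Zbtb16 and 104 with both Hopx and Zbtb16, so that the genes overlapped in many cells. This gate joins Klrk1 Trac and Il17re Trac cells, which differed in both genes. In the third run, 143 of 453 Klrk1 Trac cells had a Zbtb16 UMI and 205 a Hopx UMI. Of 144 Il17re Trac cells, 125 and 11 did. The part of this mixture in the shares was not tested.

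The Eomes cells of the Klrk1 gate were read in the same way. In the third run, 9 of 56 Eomes cells had a Hopx UMI, or 16.1% (7.62% to 28.3%), against 37.0% (33.8% to 40.3%) of the cells without Eomes. Zbtb16 was found in 12.5% (5.18% to 24.1%) and 25.6% (22.7% to 28.6%), and Tbx21 in 23.2% (13.0% to 36.4%) and 26.6% (23.7% to 29.6%). The intervals were apart for Hopx only, and after thinning they overlapped there too, at 5.56% (0.680% to 18.7%) and 15.9% (13.6% to 18.5%). In the Il17re gate, 255 of 574 cells had a Zbtb16 UMI in the third run, and 4 of these had a Tbx21 UMI and 20 a Hopx UMI.

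**Figure D5:**
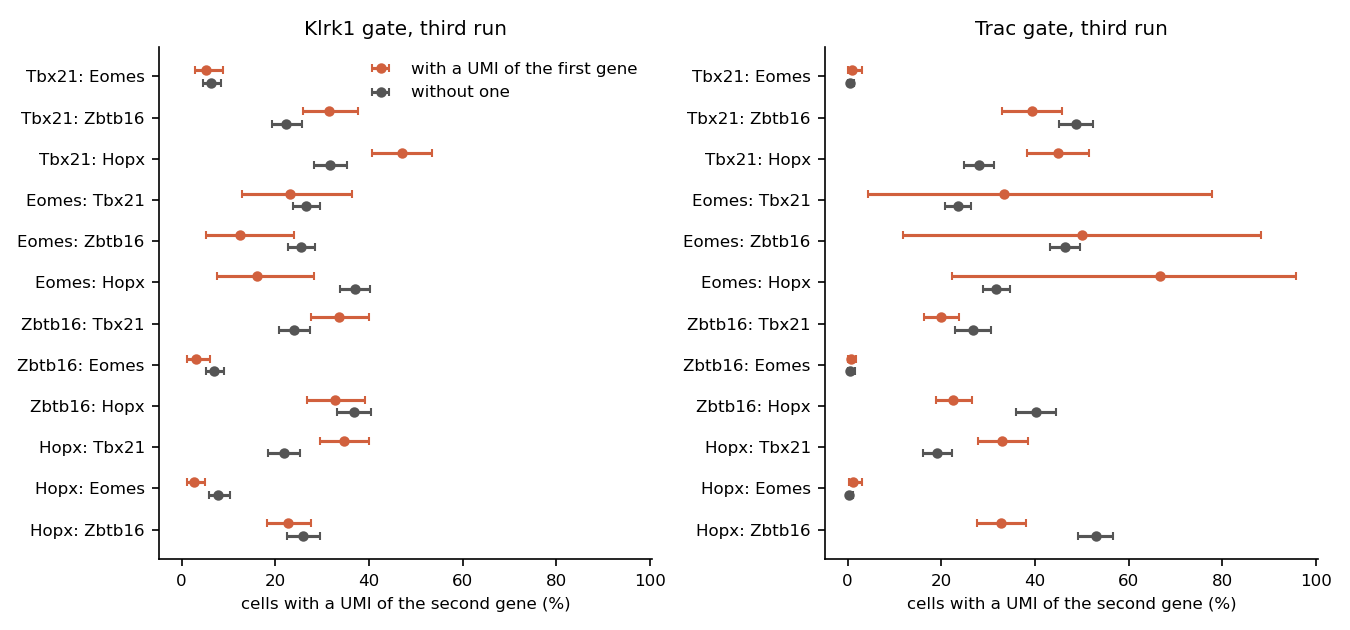
Share of cells with a UMI of the second-named gene (x axis, %), among cells with (red) and without (grey) a UMI of the first-named gene (y axis, first: second), in the Klrk1 and Trac gates of the third run, with exact 95% intervals. In the Klrk1 gate Hopx is found in 47.0% of Tbx21 cells and 31.8% of the others, and in the Trac gate in 22.5% of Zbtb16 cells and 40.2% of the others.

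The genes also differed between the second and the third runs within the same class. In the Klrk1 class, Tbx21 had a ratio of 0.939 for the third over the second run, Zbtb16 3.92 and Hopx 5.41, while the median over the 10018 genes with at least 10 UMIs in both was 1.04 and 17.3% of these were at least 2-fold higher in the third run. Eomes, with 9 UMIs in the second run, had a ratio of 14.5. In the Trac class the ratios were 0.742 for Tbx21, 3.55 for Zbtb16 and 4.34 for Hopx, with 17.2% of 8960 genes at least 2-fold higher, and in the Il17re class 2.96 for Zbtb16, with 14.6% of 9580 genes. Each run was a single library, so these ratios have no replicate check, and sort, kit and gene reference cannot be told apart.

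The genes whose levels were most alike over the 15 sums of class and run were, for Tbx21, Samd3 (Pearson r = 0.991) and the NK receptor genes Klra5 (0.980) and Klre1 (0.977). For Eomes they were Klra4 (0.897) and Ncr1 (0.882), for Zbtb16 the Hippo kinase gene Lats2 (0.974), the adhesion receptor gene Cd226 (0.973) and Rinl (0.962), and for Hopx Sidt1 (0.972), Atp8a2 (0.968) and the efflux pump gene Abcb1a (0.967). The sums of a run come from 1 library and those of small classes from few cells, and the values are a description over log2(CPM + 1). In the Klrk1 against Il17re comparison, Lats2, Cd226 and Rinl were not called (log2 differences of -0.11, 0.12 and 0.11), unlike Zbtb16.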

How the data were processed

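The authors aligned the reads of each run to the mm10 reference with Cell Ranger. The deposited values are raw UMI counts, whole numbers for each gene in each cell. The header of the third run names version 4.0.0, and the version used for each of the others is not given in the sources used here. The study names the V2 and V3.1 kits without saying which run had which. The counts held the cells that Cell Ranger called, before any filter or removal of doublets.

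Cells were filtered by the limits that the study states (500 to 5000 genes, at most 7% mitochondrial counts). The numbers of cells kept differed from those the study lists after its filtering, so its sets of cells were not reproduced exactly. Gates used at least 3 UMIs for Trac and Trdc and at least 1 UMI for Klrk1 and Il17re. CPM were computed from UMIs summed over cells, with exact Poisson intervals, and shares with exact Clopper-Pearson intervals at 95%, both for counting error only. A count of 0 was given the upper limit of 3 counts. Shares were also computed after thinning each cell to 2000 UMIs, which left out 7 cells of the Trdc gate and 1 cell of the Klrk1 gate in the third run and none of the other gates of the second and the third runs. Doublets were kept in the main analysis and removed in an alternative by Scrublet score (scanpy 1.11.5), 700 in the first run and 750 in each of the others. Sums of at least 10 cells per class and run were tested by the two-sided quasi-likelihood F test of edgeR 4.0.16 (R 4.3.3) with TMM, filterByExpr and the run as a block, and genes with an adjusted p under 0.05 were called. DESeq2 1.42.0 was an alternative. The fit was run on simulated counts in which genes were changed in the Klrk1 class only. That setting is simpler than the data, so it does not check the calls made here. All classes of a run share its library, and the run deviations of the classes correlated between 0.27 and 0.94 over every pair of classes, so the run pairs the sums. Replicates are runs, each from 4 pooled thymi. With the run as a block, differences between runs are taken out. The p-values therefore measure the scatter of the class sums that remains, pooled over classes, and not the spread between libraries. Named genes were the 4 genes, the gate genes, the 3 genes most correlated with each over the sums, and the 2 highest and 2 lowest called genes of each list in the Klrk1 against Il17re comparison, of which some are not reported here. The genes, gates and lists were chosen with earlier results of these data known. Positions are from GENCODE on GRCm38, the build of mm10. Strand was not used to part the antisense genes.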

Additional observations from a re-analysis of the deposited data

Results flagged for a closer look

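The difference in Zbtb16 between the Klrk1 and Il17re classes did not run the same way in every run. The log2 ratio of the Klrk1 over the Il17re class was -1.46 in the second run and -1.05 in the third, but 2.02 in the first. The first run rests on 2 UMIs in each class, and the difference between the runs was not tested.

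Cells left out by the limits also held transcripts of these genes. The 1358 such cells of the third run had 363 Zbtb16 UMIs (17.9 CPM), 47 Tbx21 UMIs (2.32 CPM) and 32 Hopx UMIs (1.58 CPM). Of the Zbtb16 UMIs, 308 lay in the 552 cells with more than 5000 genes. Eomes had 3 UMIs there, at the limit that a count of 0 allows.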

How the results depend on the processing

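Without the run as a block, 1, 0, 0, 299 and 0 genes passed for Klrk1 against none, Il17re against none, Klrk1 against Il17re, Trdc against Trac and Klrk1 Trdc against Klrk1 Trac cells. Without this block the log2 differences that lost their call were, in that order of comparisons, Tbx21 4.75, Eomes 4.74, Zbtb16 3.30 and Hopx 5.01, then Zbtb16 4.04, then Tbx21 6.04, Eomes 6.62, Zbtb16 -0.73 and Hopx 4.17, then Zbtb16 -4.55 and Hopx -5.97, and then Tbx21 -2.72, Eomes 2.23, Zbtb16 -1.80 and Hopx -2.49. Leaving out 1 run moved the counts of genes called between 1628 and 5521, 479 and 3516, 309 and 2078, and 2086 and 6021 in the first 4 comparisons, against 5175, 2618, 1576 and 5442. The values without the second run were 1995, 641, 512 and 2086 and those without the third 1628, 479, 309 and 2453. The fit of Klrk1 cells by receptor had no residual degrees of freedom without the second or the third run and was not run there. Leave-one-out values of Eomes lay between 1.83 and 5.12 for Klrk1 against none and between 2.57 and 11.05 for Klrk1 against Il17re, lowest without the third run. Those of Zbtb16 for Klrk1 against Il17re lay between -1.26 and -0.84, and those of Tbx21 for Il17re against none between -2.51 and -0.98.

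A receptor minimum of 1 UMI gave 3094, 1263 and 942 genes for the first 3 comparisons. A gate of 2 UMIs gave 3993 for Il17re against none and 1284 for Klrk1 cells by receptor (3592), where thinning gave 1353 and DESeq2 1477. Thinning gave 1633 for Il17re against none. Tbx21 passed as lower in the Il17re class than in the class none with a receptor minimum of 5 UMIs (-1.98) and with B and myeloid cells removed (-1.66). For Klrk1 against Il17re, Zbtb16 was at -0.88 with DESeq2. In Klrk1 cells by receptor, Eomes was at 1.72 with a receptor minimum of 5 UMIs, 0.47 with doublets removed, 2.20 after thinning and 1.43 with DESeq2, and Zbtb16 at -0.98 after thinning. The cause of these shifts was not tested. Thinning left fewer UMIs by construction, whereas DESeq2 was given the same sums.

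In the third run, thinning lowered the share with a Zbtb16 UMI among Tbx21 cells to 6.52% in the Klrk1 and 11.0% in the Trac gate, that with Hopx to 18.5% and 17.8%, and that with Hopx among Zbtb16 cells to 9.76% and 5.59%. Of the levels per gate and run recomputed under the alternatives, 319 stayed within the Poisson interval and 65 did not, most often after thinning. Of the recomputed differences of the 4 genes, 264 kept their side of the threshold, 25 lost their call and 3 gained one, and 0 calls reversed.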

Other observations

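Trdc cells with an Eomes UMI were described by genes picked for a high ratio to the rest of the Trdc class in both the second and the third runs. A difference of these genes in both runs was thus set by the choice. Trdc cells with an Eomes UMI numbered 16 and 30. Ccl5 was at 1303 and 799 CPM in them and at 24.3 and 17.2 CPM in the other cells of the class. Il2rb, the β chain of the IL-2 and IL-15 receptors, was at 181 and 170 CPM against 9.15 and 15.1 CPM, and Cd160, an inhibitory receptor gene of cytotoxic cells, at 170 and 128 CPM against 8.72 and 16.3 CPM. Tnfrsf9, which encodes the costimulatory receptor 4-1BB, was at 238 and 128 CPM against 8.47 and 6.53 CPM. In the first run, 2 Trdc cells had an Eomes UMI, with 0 UMIs of Ccl5, 3 of Il2rb, 4 of Cd160 and 2 of Tnfrsf9. In the second and the third runs, the cells with an Eomes UMI had fewer UMIs, with medians of 4073 and 7061 against 6576.5 and 10683.5. They had 850 and 458 CPM of Cd3e, against 663 and 467 CPM in the other cells. The 8 NK cell markers summed to 0 CPM in the cells with an Eomes UMI and 18.2 CPM in the others in the second run, and to 103 and 8.20 CPM in the third.

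Trdc cells with a Zbtb16 UMI, 35 and 106 in the second and the third runs, were described by genes picked in the same way. Their medians were 5485 and 14239 UMIs, against 6574 and 10572.5 UMIs in the rest of the class. Icos, a costimulatory receptor gene, was at 141 and 121 CPM against 9.42 and 8.47 CPM in the rest of the class, Izumo1r at 231 and 156 CPM against 9.03 and 20.1 CPM, and Id2, an inhibitor of E proteins, at 525 and 239 CPM against 61.1 and 28.3 CPM. Il18r1, a subunit of the IL-18 receptor, was at 81.1 and 75.3 CPM against 5.56 and 4.24 CPM. In the first run, 7 Trdc cells had a Zbtb16 UMI. They had 17 UMIs of Id2 (322 CPM against 9.63 CPM), 2 of Icos, 2 of Izumo1r and 0 of Il18r1, and the last 3 genes were thus below the limit of 3 counts. In the Il17re class, cells with a Zbtb16 UMI had Icos at 793 and 973 CPM against 367 and 247 CPM, and Lgals3, which encodes galectin 3, at 760 and 991 CPM against 346 and 156 CPM. This split went with the receptor gate. A Zbtb16 UMI was present in 63 of 212 and 125 of 144 Il17re Trac cells. It was present in 3 of 168 and 11 of 163 Il17re Trdc cells. The part of the receptor gate in these levels was not tested.

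These genes were taken from the 8 with the highest ratio of CPM + 20 in both runs, a rule chosen after the values were seen, and they are a description within each run with no test. The cells of a run share 1 library, and doublets were not removed from them.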
